A study of Rattus norvegicus with 12 samples.

Results

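The EGF family of growth factors and the ErbB receptors that bind them were followed in the forebrain of rats that had spent 3 hours in an unfamiliar environment. The members were 6 ligand genes (Hbegf, Egf, Tgfa, Areg, Btc and Nrg1) and 4 receptor genes (Egfr, Erbb2, Erbb3 and Erbb4), taken as every probe set that the platform annotation ties to exactly 1 of these symbols. This gave 20 probe sets of the 31042 for transcripts on the array (10 of 14217 genes), of which 8 belong to Nrg1, 3 to Egfr, 2 to Tgfa and 1 to each other gene. The exposed group was 6 male Long Evans rats, aged 6 weeks and housed singly beforehand, that spent those hours among objects varied in shape and colour, and the control group was 6 such rats left in a standard laboratory cage. Total RNA of the forebrain of each animal was measured on 1 Affymetrix rat array, and the series compares the groups.

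Ligands of this family are mostly made as membrane proteins and released by metalloproteases of the ADAM group, after which they bind an ErbB receptor on the same or a neighbouring cell. Binding pairs the receptors and switches on the Ras-ERK and PI3K-AKT cascades. Egf, Tgfa and Areg products bind EGFR, those of Hbegf and Btc bind EGFR and ErbB4, and neuregulin 1, the product of Nrg1, binds ErbB3 and ErbB4. ErbB2 has no known ligand of its own and acts as a partner, while ErbB3 has a weak kinase and signals through its partner. In the brain, ErbB4 is known from interneurons, ErbB3 from oligodendrocyte lineage cells, and EGFR from progenitors and glia.

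Of the 10 genes, Hbegf rose in exposed animals, and none of the others passed the test in either direction. Its RNA level was 1.16-fold higher (95% interval 1.10 to 1.23, 6 animals per group), with every exposed animal above every control animal. In limma, with Benjamini-Hochberg adjustment over all 31042 probe sets, 1 of the 20 member probe sets was higher and 0 were lower. At an unadjusted p under 0.05 the counts were 1 higher and 1 lower, the second being Egf, and over the whole array 13.2% of probe sets passed in either direction at that threshold. At the adjusted threshold 1.97% of all probe sets were higher and 2.56% passed in either direction, and by the brightest probe set of each gene 3.46% of 14217 genes passed. A count of 1 in 20 is near these shares, so no shift of the family as a whole is reported. The median log2 change over the 9 members measured above the floor was 0.01, against -0.01 over the 12674 genes so measured. Values are deposited intensities in arbitrary linear units. A level in bulk tissue does not separate fewer cells of a type from less RNA per cell.

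The promoter of Hbegf, the member that rose, is shown with that of Areg, which lay below the floor on all 12 arrays. Both are RefSeq windows of build GRCr8, from 250 bases before to 50 after the annotated start of the gene, 5′ to 3′ on the gene's strand. Of the 10 members 8 were matched in the table, and Nrg1 and Erbb3 are named only. The Hbegf window is chr18:28390171-28390470 on the minus strand, and the Areg window is chr14:17265592-17265891, also on the minus strand. Capitals mark matches to the motifs searched. The full cAMP response element holds its shorter core on both strands, so these matches overlap.
Hbegf: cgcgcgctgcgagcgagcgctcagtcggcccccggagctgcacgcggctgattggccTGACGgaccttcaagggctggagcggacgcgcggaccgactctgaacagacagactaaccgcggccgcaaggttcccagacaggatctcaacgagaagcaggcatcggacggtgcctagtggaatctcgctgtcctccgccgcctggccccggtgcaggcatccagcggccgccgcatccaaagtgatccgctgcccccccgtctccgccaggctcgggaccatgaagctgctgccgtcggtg
Areg: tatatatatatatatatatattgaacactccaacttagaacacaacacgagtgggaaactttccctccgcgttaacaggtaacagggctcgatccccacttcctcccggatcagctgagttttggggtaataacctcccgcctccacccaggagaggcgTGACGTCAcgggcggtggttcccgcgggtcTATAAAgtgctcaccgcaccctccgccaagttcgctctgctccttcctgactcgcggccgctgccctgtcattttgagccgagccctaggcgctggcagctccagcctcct

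The motifs, searched on both strands, were the full cAMP response element TGACGTCA, its core TGACG, the AP-1 site TGANTCA, the Egr site GCGNGGGCG, the CArG box (CC, then a run of A or T, then GG) and the TATA box TATAAA. The Hbegf window held 1 core, at position -193 with the start counted as 0, and no match to any other motif. The core was present in 21.2% of all 33469 promoter windows in the table. The Areg window held the full cAMP response element at position -91, a motif found in 1.83% of windows, and a TATA box at position -61, found in 14.2%. In Tgfa there was 1 Egr site, a motif of 4.98% of windows, and the windows of Egf, Btc, Egfr, Erbb2 and Erbb4 held no match. The AP-1 site and the CArG box, present in 7.33% and 1.64% of windows, were found in none of the 8 member windows searched. A match describes letters in the window and shows no binding, and the absence of a match says nothing of the factor.

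Hbegf codes for heparin-binding EGF-like growth factor, which in humans also serves as the cell surface receptor for diphtheria toxin. Its probe set 1368983_at read 135, 144 and 152 in exposed animals (lowest, median and highest), against 116, 125 and 132 in control animals. The groups did not overlap: the dimmest exposed animal, number 5 at 135, stood above the brightest control animal, number 3 at 132. Complete separation in this direction was found for 1.94% of all probe sets. The means were 144 ± 5.65 in exposed animals and 124 ± 6.23 in control animals (SD, n = 6 each). The log2 change was 0.22 ± 0.04 (SE of the limma fit, adjusted p = 0.0114). An exact permutation test, two-sided and over all 924 ways to assign the animals, gave p = 0.00216, the lowest value this design allows.

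The gene was dim on these arrays. Its mean ranked at percentile 38.05 among all probe sets, above the floor of 53.8 to which lower intensities were raised. Its spread within groups was small, 0.07 on the log2 scale, against a median of 0.10 over the 23880 probe sets above the floor on every array. The change was 0.22 both in animals numbered 1 to 3 and in those numbered 4 to 6 in the labels (3 against 3 each, adjusted p = 0.186 and 0.347 in limma), so neither set passed by itself. A sign of RNA quality, taken as how far control probe sets at the 3 prime end of transcripts exceed those at the 5 prime end in log2, was 0.45 ± 0.07 in exposed animals and 0.39 ± 0.05 in control animals (SD, n = 6 each, exact permutation p = 0.0823). With this measure as a covariate the change of Hbegf was 0.20 and its adjusted p was 0.0566, so the call was lost. Raising the floor to the 40th percentile, an intensity of 148, put it above most Hbegf values and left a log2 change of 0.01 (adjusted p = 0.918).

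**Figure D1:**
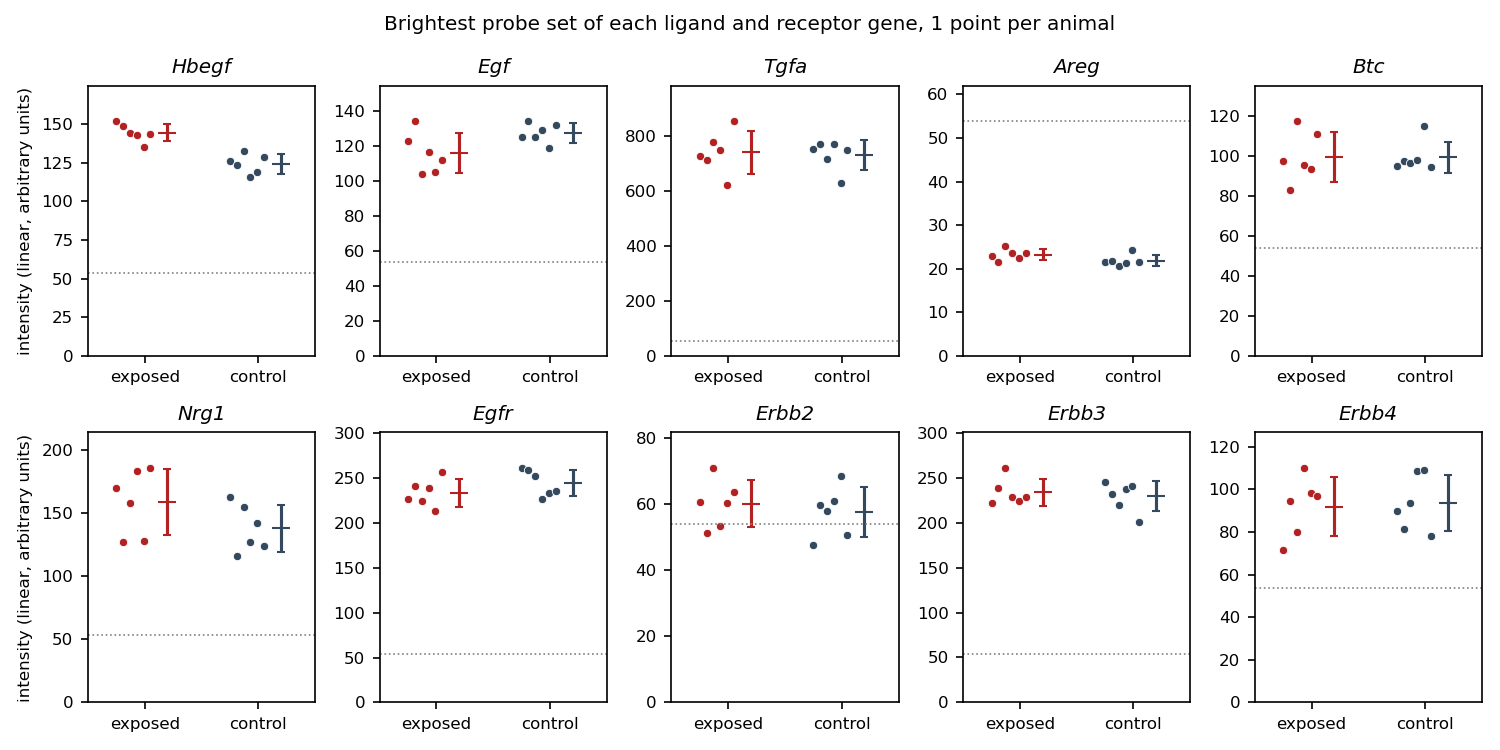
Intensity (linear scale, arbitrary units) of the brightest probe set of each of the 10 genes, with 1 point per animal, exposed left of control, and the mean ± SD beside each group (n = 6). The dotted line is the floor at 53.8. The Hbegf groups do not overlap, those of the other 9 genes do, and all Areg values lie below the floor.

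Whether Hbegf changed more than the other members was tested on the log2 difference between Hbegf and each of the 14216 other genes within an array, a comparison chosen after the values were seen. Hbegf was picked as the member that rose, so the choice itself favours a larger change, and all differences share its values. Areg, at the floor on all arrays, has no change to compare, and Erbb2 was at the floor on 4 of 12. The difference passed in limma against 6 of the 8 other members measured, from 0.18 for Erbb2 (adjusted p = 0.0443) to 0.36 for Egf (adjusted p = 0.000235). It did not pass against Nrg1 (0.02 ± 0.10, SE, adjusted p = 0.842) or Erbb4 (0.24 ± 0.12, SE, adjusted p = 0.0606). Since Hbegf changed more than 83.7% of the 12673 other genes above the floor on some array by the same test, the members were not set apart from the rest of the array in this respect.

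Egf codes for epidermal growth factor, the founding ligand of the family. Its probe set read 104, 114 and 134 in exposed animals (lowest, median and highest), against 119, 127 and 134 in control animals. Of the exposed animals 4 of 6 were lower than all controls, while exposed animal 2, at 134, was level with the highest control. The log2 change was -0.14 ± 0.06 (SE, adjusted p = 0.339 in limma), with an exact two-sided permutation p of 0.0519, so Egf did not pass. Its 95% interval ran from -0.28 to -0.01.

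Tgfa codes for transforming growth factor alpha, a close relative of EGF with the same receptor, and the array reads it with a pair of probe sets. The brighter probe set, 1381449_s_at, read 620, 738 and 854 in exposed animals, against 628, 751 and 772 in control animals. The dimmer one, 1387450_at, read 285, 326 and 340 in exposed animals, against 273, 330 and 359 in control animals. Both pairs of groups overlapped almost fully, and animal 5 was the lowest of its group at both probe sets in both groups. The log2 changes were 0.01 and -0.02, with 95% intervals from -0.15 to 0.18 and from -0.18 to 0.14. As folds, the upper ends of these intervals were 1.13 and 1.11.

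Areg codes for amphiregulin, an EGFR ligand, and Btc for betacellulin, a ligand of EGFR and ErbB4. The probe set of Areg read 21.5, 23.2 and 25.2 in exposed animals and 20.5, 21.6 and 24.3 in control animals, below the floor on all 12 arrays, so no change is given. Btc read 82.8, 96.4 and 117 in exposed animals, against 94.3, 96.8 and 115 in control animals. The medians of Btc lay close together, the exposed animals spread on both sides of the controls, and its log2 change was 0.00 ± 0.08 (SE, adjusted p = 1 in limma).

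Nrg1 codes for neuregulin 1, of which many transcript forms are known, and the array carries 8 probe sets for it. Of these, 5 were above the floor on every array, 1388258_at fell to the floor in exposed animal 2, and 1371212_at and 1388245_a_at were at the floor on all 12. Which transcript forms each probe set reads was not determined here. The brightest, 1369783_a_at, read 127, 164 and 186 in exposed animals, against 116, 135 and 163 in control animals. Exposed animals 1, 4 and 6 were higher than all controls, and the others overlapped with them. Its log2 change was 0.20 ± 0.12 (SE, adjusted p = 0.608 in limma, exact permutation p = 0.145), with a 95% interval from -0.08 to 0.47.

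The next probe set, 1370607_a_at, varied far more between animals than any other member. It read 61.7, 147 and 219 in exposed animals, against 79.9, 106 and 177 in control animals. Exposed animals 1, 4 and 6 and control 3 were at 174 or above, while exposed animals 2 and 5 were at 71.1 and 61.7, so that high and low animals occurred in both groups. The spread within groups was 0.63 on the log2 scale, at the 99.8th percentile of probe sets above the floor on every array. With this spread a log2 change of 0.19 ± 0.35 (SE, adjusted p = 1 in limma) had a 95% interval from -0.58 to 0.95.

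The brightest Nrg1 probe set followed the same animals. After the group means were taken off, the pair had Pearson's r = 0.866 and Spearman's rho = 0.825 over the 12 animals (permutation p = 0.00047 and 0.00169 with 100000 resamples, 0.00235 and 0.00845 after Benjamini-Hochberg over 10 relations computed). Without exposed animals 2 and 5, the farthest from the median, r was 0.755. This relation was looked for after the values were seen, and whether the pair shares transcripts or probes was not tested. The other 4 Nrg1 probe sets above the floor on some arrays had log2 changes between -0.03 and 0.03. No difference in change from the brightest passed in limma for the 5 further Nrg1 probe sets above the floor on some arrays (smallest adjusted p = 0.569), the dimmer Tgfa probe set (adjusted p = 0.905) or the Egfr probe set 1381145_at (adjusted p = 0.988). Over the array 0.705% of 5535 such pairs passed.

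**Figure D2:**
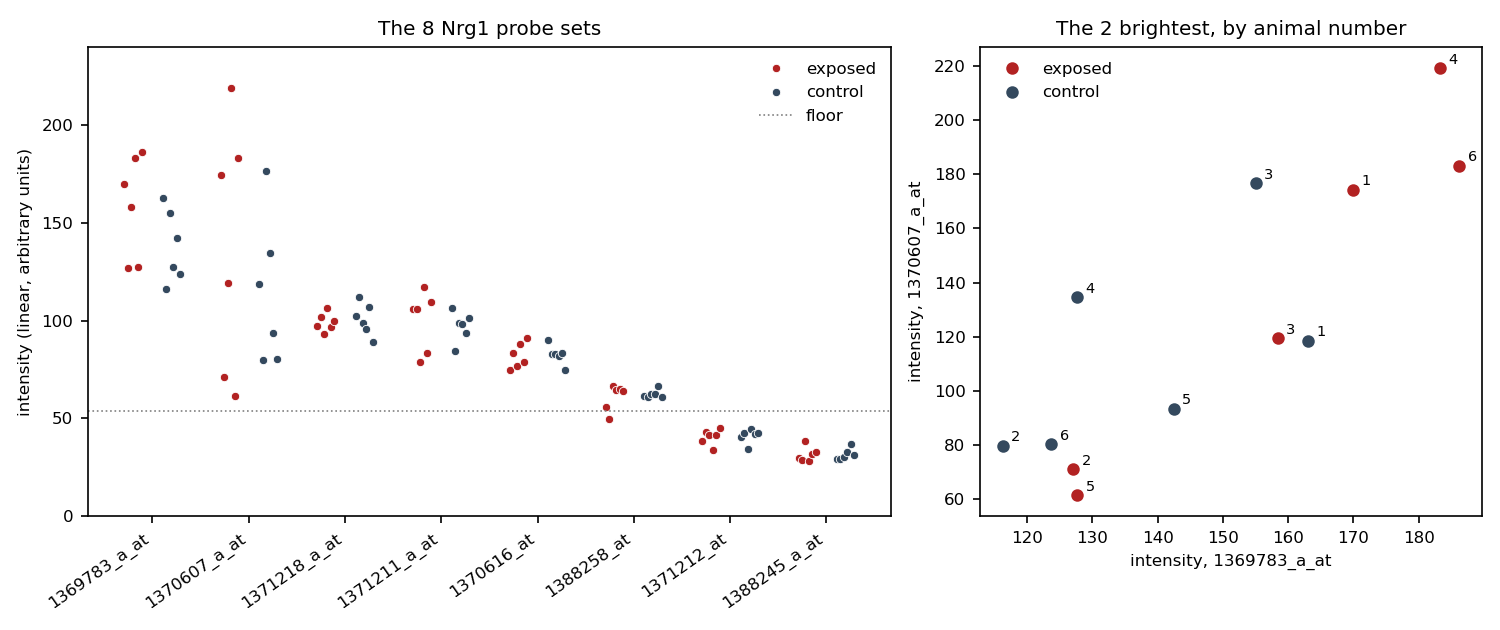
Left, intensity (linear scale, arbitrary units) of the 8 Nrg1 probe sets in exposed and control animals, 1 point per animal, with the floor dotted. Right, the pair of brightest probe sets against each other, each point labelled with its animal number. Exposed animals 1, 4 and 6 are the highest at the brightest probe set and lie high at the other, and exposed 2 and 5 are the lowest exposed animals at both.

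Egfr codes for the receptor of EGF itself. Its brightest probe set, 1370830_at, read 213, 233 and 257 in exposed animals, against 227, 244 and 262 in control animals. At the next, 1381145_at, the values were 195, 203 and 218 in exposed animals, against 200, 217 and 234 in control animals. At each of these probe sets 3 of 6 exposed animals were lower than all controls, and the rest overlapped. Neither passed: the log2 changes were -0.07 ± 0.05 and -0.08 ± 0.05 (SE, adjusted p = 0.720 and 0.555 in limma), with 95% intervals from -0.19 to 0.05 and from -0.18 to 0.02. The third Egfr probe set was at the floor on all 12 arrays.

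Erbb2, the receptor without a ligand, was measured at the edge of the floor. It read 51.4, 60.6 and 71.0 in exposed animals, against 47.7, 58.8 and 68.4 in control animals, with 4 of 12 arrays below the floor. Erbb3 read 222, 228 and 261 in exposed animals, against 200, 235 and 245 in control animals. The groups of both receptors overlapped, and exposed animal 3 was the highest of all 12 at each. Their log2 changes were 0.03 ± 0.08 for Erbb2 and 0.03 ± 0.06 for Erbb3 (SE, adjusted p = 1 for both in limma). The 95% interval of Erbb3 ran from -0.10 to 0.16.

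Erbb4 codes for the neuregulin receptor of interneurons. It read 71.3, 95.7 and 110 in exposed animals, against 78.0, 91.8 and 109 in control animals. Each group held high and low animals, with a spread within groups of 0.22 on the log2 scale, at the 95.1th percentile of probe sets above the floor on every array. The log2 change was -0.03 ± 0.12 (SE, adjusted p = 1 in limma), with a 95% interval from -0.29 to 0.24. An increase as large as that of Hbegf thus lay within the interval of Erbb4, and within that of the brightest Nrg1 probe set. It also lay within those of Nrg1 1370607_a_at and 1371211_a_at (upper ends 0.95 and 0.26). At Nrg1 1371218_a_at, 1370616_at and 1388258_at it lay outside (upper ends 0.10, 0.11 and 0.09). The same increase lay outside the intervals of Egf, Btc, Erbb3, both Tgfa probe sets and the Egfr probe sets tested. For Erbb2 the upper end was 0.206, against the Hbegf change of 0.217, with 4 of 12 arrays at the floor. With no floor the Erbb2 change was 0.06, and whether its interval then holds the Hbegf change was not tested.

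**Figure D3:**
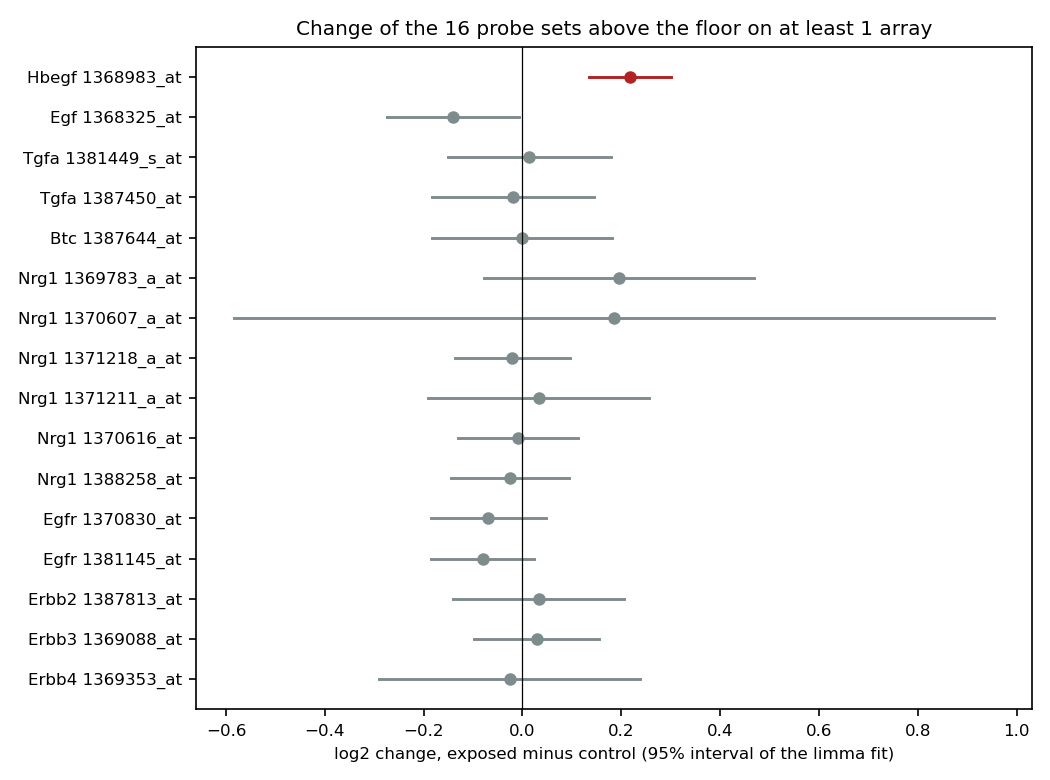
Log2 change, exposed minus control, with its 95% interval from the limma fit (n = 6 per group) for the 16 member probe sets above the floor on at least 1 array. The Hbegf interval, in red, lies between 0.13 and 0.30 and its call passed, while the widest interval is that of Nrg1 1370607_a_at.

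Some members are known from particular cell types. Erbb3, Erbb4, Egfr and Nrg1 were therefore set against the mean level of cell type markers in the same animals. This gave 5 relations, with group means taken off. No relation passed over the 12 animals. Erbb3 and oligodendrocyte markers had r = -0.351 and rho = -0.448 (permutation p = 0.265 and 0.148, 0.559 and 0.260 after Benjamini-Hochberg over the 5 relations), and r = -0.752 without exposed animal 2 and control 2. Erbb4 and markers of olfactory bulb and neuroblasts had r = 0.415 and rho = 0.559 (permutation p = 0.182 and 0.0630, adjusted 0.559 and 0.260), and r = 0.129 without controls 4 and 6. Control 4 stood apart from the other arrays in these markers, with a mean of 9.12 on the log2 scale, and Hbegf kept its call without that animal (log2 change 0.20, adjusted p = 0.0217). The remaining relations, of Erbb4 with GABA interneuron markers, Egfr with astrocyte markers and Nrg1 with neuron markers, had r between -0.272 and 0.223.

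Levels of some members varied with the dim end of their array. Neither these relations nor the fit with this covariate were planned. How many other probe sets of like intensity vary in this way was not computed, so the relations cannot be called particular to the members. The lower quartile of all intensities on an array, a measure of its dim end, was 69.5 ± 2.14 in exposed animals and 69.4 ± 1.44 in control animals (SD, n = 6 each, exact permutation p = 1). With group means taken off, Erbb2 had r = 0.896 and rho = 0.877 with it over 12 arrays (permutation p = 7e-05 and 0.00034, 0.0007 and 0.0034 after Benjamini-Hochberg over 10 relations). Btc had r = 0.783 and rho = 0.734 (permutation p = 0.0022 and 0.00836, adjusted 0.00733 and 0.0279), and Erbb3 had r = 0.735 and rho = 0.629 (permutation p = 0.00685 and 0.0318, adjusted 0.0171 and 0.0794). Egf went the other way, with r = -0.650 and rho = -0.594 (permutation p = 0.0233 and 0.0452, adjusted 0.0465 and 0.0824). Without exposed animal 3 and control 5, the farthest from the median, r was 0.789 for Erbb2, 0.468 for Btc, 0.498 for Erbb3 and -0.399 for Egf. For Hbegf r was -0.453 and rho -0.587 (permutation p = 0.140 and 0.0494, adjusted 0.233 and 0.0824), r was -0.648 without those arrays, and its change with the lower quartile as a covariate was 0.22 (adjusted p = 0.0102).

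**Figure D4:**
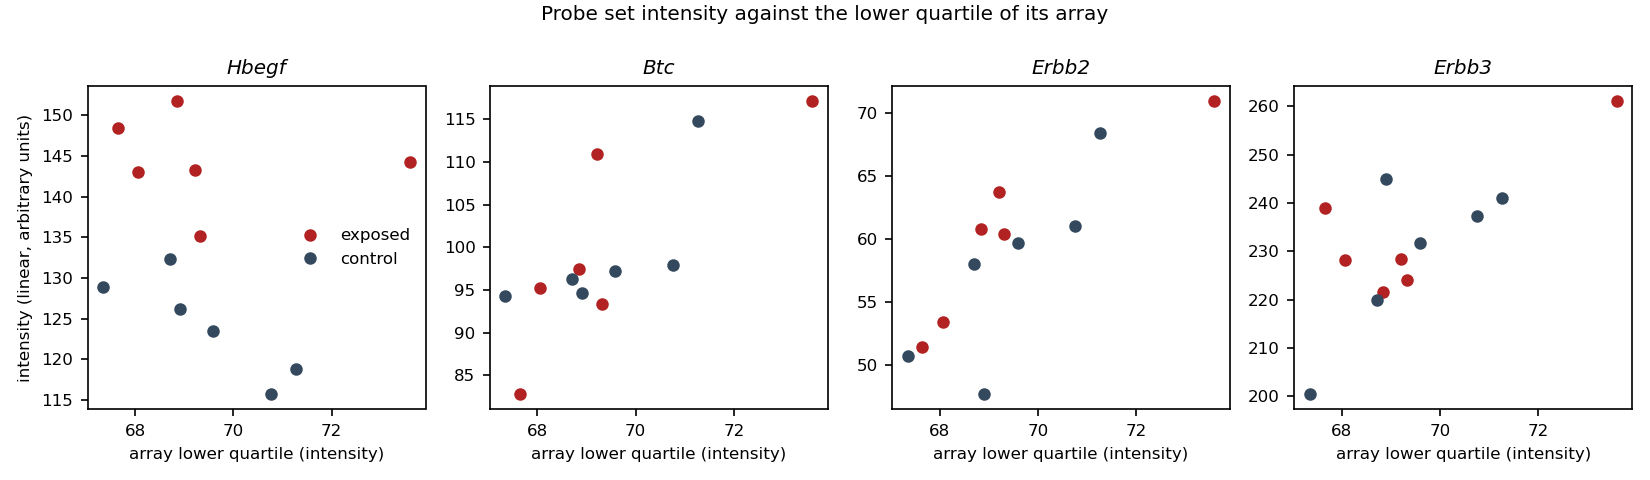
Intensity (linear scale, arbitrary units) of Hbegf, Btc, Erbb2 and Erbb3 against the lower quartile of intensities on the same array, 1 point per animal. Btc, Erbb2 and Erbb3 are highest on the exposed array with the highest lower quartile, whereas the Hbegf groups stay separate along the axis.

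The genes whose pattern over the 12 animals was most like that of Hbegf were Vipr1, a receptor for vasoactive intestinal peptide, Numb, an adaptor that restrains Notch, Smad3, a transducer of TGF-beta and activin signals, Taf5, a subunit of the general transcription factor TFIID, and Lrrc8c, a subunit of volume-regulated anion channels. Pearson's r of their log2 intensities with Hbegf lay between 0.954 and 0.961 over 12665 genes compared, of which 56 had r over 0.9. These values contain the difference between the groups, so the choice favours genes that rose. Within groups r ran from 0.464 (Smad3) to 0.957 (Numb) in exposed animals, and from 0.730 (Lrrc8c) to 0.971 (Smad3) in control animals. All 5 genes were higher in exposed animals, with log2 changes from 0.32 ± 0.06 for Taf5 to 0.51 ± 0.06 for Vipr1 (SE, largest adjusted p = 0.0190 in limma), and so by more than Hbegf itself.

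Around the receptors, 9 lists with 127 genes of ligand release, signalling and feedback were followed, and 106 genes were measured. Of these 9 rose and 0 fell in limma, or 8.49%, against 3.46% of all genes, and at an unadjusted p under 0.05 the counts were 23 and 3, or 24.5%, against 15.9% of all genes. Without the ERK output genes, which hold activity-induced genes already known to move in these samples, 4 of 91 rose (4.40%), a share near that of all genes. No test was made of any list as a whole.

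Among genes of ligand release 1 of 11 rose, with a median log2 change of 0.07. It was Nrdc, whose product nardilysin binds HB-EGF and aids its shedding, at 1537 ± 77.8 in exposed animals against 1352 ± 33.7 in control animals (SD, n = 6 each, log2 change 0.18 ± 0.03, SE, adjusted p = 0.0123). As for Hbegf, the groups did not overlap, with 6 of 6 exposed animals higher than all controls. At an unadjusted p under 0.05 in limma, 5 of the 11 ligand release genes were higher and 0 lower. Of all genes 15.9% passed that threshold in either direction. Of the cell surface partners of HB-EGF and heparan sulfate carriers 0 of 9 passed, among them Cd9, a tetraspanin that associates with the HB-EGF precursor, with a log2 change of -0.07 (adjusted p = 0.531). Of the other ErbB ligands 0 of 3 measured passed, with Ereg and Nrg4 at the floor on all 12 arrays and Nrg2 at a log2 change of 0.02 (adjusted p = 1).

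Of receptor adaptors 1 of 22 rose, Ptpn11, the phosphatase SHP2 that ErbB signalling needs to reach ERK, by 1.06-fold (log2 change 0.08 ± 0.02, SE, adjusted p = 0.0280, 5 of 6 exposed animals above every control). In the Ras-ERK cascade 0 of 7 measured genes passed, in the PI3K-AKT cascade 0 of 12, and of the PDZ proteins that bind ErbB4 or its partners 0 of 5, with 0 at an unadjusted p under 0.05 in each. When each gene was instead averaged over its probe sets, Ptpn11 did not pass, while Sos1 and Stat3 rose (log2 change 0.09 and 0.21, adjusted p = 0.0495 and 0.0134) and Shc2 fell (-0.12, adjusted p = 0.0255), all named after their values were seen. By the brightest probe set, the smallest p of the Ras-ERK cascade belonged to Map2k1, the kinase MEK1 that activates ERK (log2 change -0.04, adjusted p = 0.495 in limma). In the PI3K-AKT cascade it belonged to Pik3ca, a catalytic subunit of PI3K (0.06, adjusted p = 0.406). Among the PDZ proteins it belonged to Dlg1, a synaptic scaffold protein (0.04, adjusted p = 0.465). The medians of the adaptors and of these groups lay between -0.02 and 0.03. At an unadjusted p under 0.05 in limma, 5 adaptors were higher and 1 lower by the brightest probe set.

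Of genes that restrain or turn over the receptors 2 of 22 rose and 0 fell, with a median of 0.01. The counts at an unadjusted p under 0.05 in limma were 5 higher and 2 lower. Spry4, an inhibitor of Ras-ERK signalling, rose 1.45-fold to 487 ± 43.2 in exposed animals, against 336 ± 22.1 in control animals (SD, n = 6 each, adjusted p = 0.00117, 6 of 6 above every control). Ptpn1, the phosphatase PTP1B that acts on EGFR and other receptors, rose 1.25-fold to 789 ± 60.7 in exposed animals, against 632 ± 49.2 in control animals (adjusted p = 0.0219, 5 of 6). Of ERK output genes 5 of 15 rose and 0 fell, with a median of 0.24. Without adjustment 8 of them were higher and 0 lower at a p under 0.05 in limma. Dusp6, a phosphatase specific to ERK, rose 1.67-fold (adjusted p = 2.82e-05) and Dusp5, its nuclear relative, 2.30-fold (adjusted p = 2.76e-05), with Egr1 and Fos the other members of smallest p at 2.41-fold and 6.84-fold (adjusted p = 4.67e-08 and 8.65e-06). Averaged over its probe sets, the log2 change of Fos was 1.38, against 2.78 at the brightest. The fifth was Fosl2, a relative of Fos named after its value was seen, at 2.22-fold (adjusted p = 0.000201).

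**Figure D5:**
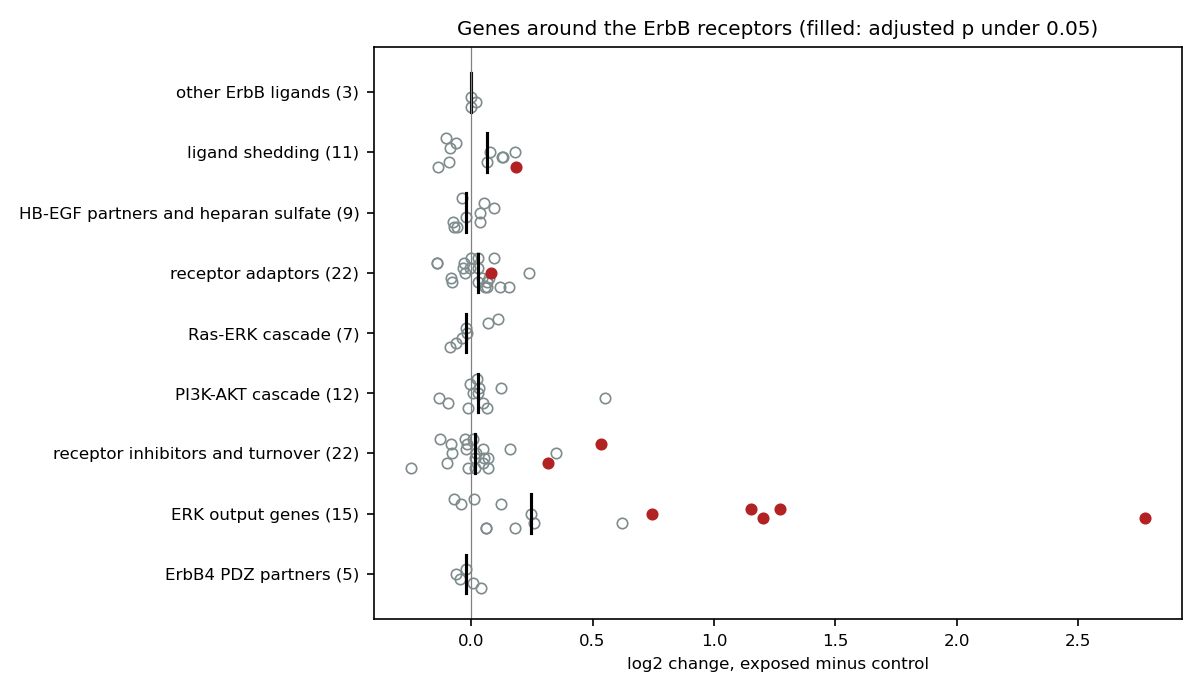
Log2 change, exposed minus control, of each measured gene in 9 lists around the ErbB receptors, with the number measured in brackets. Filled red points passed at an adjusted p under 0.05 and black bars are medians. Passing genes lie to the right of 0 in each list that has any, and 5 of the 9 are ERK output genes.

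All 10 measured neuron markers and all 9 measured striatum markers were above the floor on at least 1 array. So were 12674 of all 14217 genes, so this does not identify the tissue. Of 11 marker lists, 10 had no member that passed by the brightest probe set, and over all of them 6 markers were higher and 11 lower at an unadjusted p under 0.05. Averaged over probe sets, the oligodendrocyte marker Mobp (log2 change 0.15, adjusted p = 0.0314) and Sox11 of the neuroblast list (0.43, adjusted p = 0.0416) also passed, both higher. All 11 endothelial and mural markers measured had a log2 change below 0, with a median of -0.07. Of these 1 of 11 passed, namely Slco1a4, an organic anion transporter of brain capillaries. It was at 1833 ± 120.0 in exposed animals against 2232 ± 77.0 in control animals (SD, n = 6 each, log2 change -0.29, adjusted p = 0.00364 in limma). The summed intensity of that list, which includes Slco1a4, ran from 7876 to 8543 in exposed animals, against 8427 to 9246 in control animals. No marker of that list was at the floor on all arrays. Markers of meninges and fibroblasts had a median log2 change of -0.11, with 9 of 10 below 0. Their summed intensity ran from 22730 to 26190 in exposed animals, against 24630 to 28510 in control animals. Most of that linear sum came from the bright gene Ptgds, with a mean of 16690 in exposed and 17590 in control animals. The part of the meningeal and fibroblast markers in the result for Hbegf was not tested. With the mean of the endothelial and mural list as a covariate the log2 change of Hbegf was 0.29 (adjusted p = 0.0110). Array medians lay between 235 and 245.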

How the data were processed

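Forebrain RNA of 6 exposed and 6 control rats was measured, 1 animal per array. The deposited values are linear intensities, 1 for each probe set on each array. The background correction, probe summary and normalization by the authors are not stated in the labels or the file. Per the labels' protocols cRNA was prepared by standard Affymetrix procedures. The 12 array medians lay within 0.06 of each other on the log2 scale, so no further normalization was applied. The number of arrays limits the precision.

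Values under 53.8, the 20th percentile, were set to it before log2 was taken. For 31042 probe sets a group model was fitted with limma 3.58.1 in R 4.3.3 (eBayes with a mean-variance trend), with Benjamini-Hochberg adjustment over all of them and a threshold of 0.05. The 57 array control probe sets were left out. The script was tested on simulated data. Genes with several probe sets are represented in lists by the brightest. Symbols come from the platform annotation, checked through Entrez IDs in the RefSeq table (GRCr8), which changed 0 of them and left 68 unmatched.

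The named genes are all members, the genes of each pathway list that passed or, where none or more than 4 passed, up to 4 with the smallest p, and the 5 genes most like Hbegf. The members and lists were chosen with earlier results of these data known. Alternatives covered normalization, floor, filter, variance model, covariates, the number sets, the replicate block and leaving out animals.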

Additional observations from a re-analysis of the deposited data

Results flagged for a closer look

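Control 5 stood apart from the other 5 control animals at 3 member probe sets, by the gap to its nearest neighbour over the range of the group. At the brighter Tgfa probe set it read 628, against 716 to 772 in the other controls. At Btc it read 115, against 94.3 to 97.9. At Nrg1 1388258_at it read 66.4, against 60.8 to 62.7. Of 32 groups of 6 animals compared in this way 3 were marked, and chance marks about 1 in 20. The lower quartile of this array was 71.3, the highest among control arrays. With group means taken off, r with the lower quartile was 0.783 for Btc and 0.596 for Nrg1 1388258_at over 12 arrays. For the brighter Tgfa probe set r was -0.002. These relations include control 5, and r for Btc was 0.468 without control 5 and exposed animal 3. Whether the level of the array accounts for the readings of control 5 was not tested.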

How the results depend on the processing

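Hbegf kept its call in 27 of 31 alternatives. It missed the threshold with the floor at the 40th percentile (log2 change 0.00707, adjusted p = 0.918), which lies above most of its values, within animals 1 to 3 (0.22, adjusted p = 0.186) and 4 to 6 (0.22, adjusted p = 0.347), which hold fewer samples, and with the RNA quality covariate (0.20, adjusted p = 0.0566), where the cause was not tested. Leaving out each animal in turn gave 0.20 to 0.24, with adjusted p from 0.00875 to 0.0314. A filter that drops the dimmest 40% of probe sets also drops Hbegf, so it gave no value. With the replicate block its adjusted p was 0.0419, with no floor (chosen after seeing the data) 0.0305, and without control 4 and exposed animals 3 and 5 together 0.0288. None of the 15 other member probe sets above the floor passed in any alternative run (smallest adjusted p = 0.105), and the sign of 12 of them changed in at least 1.

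Counts over all probe sets were 610 higher and 186 lower. They were 359 and 76 with the replicate block, 66 and 9 within animals 1 to 3, 31 and 2 within animals 4 to 6, and 392 and 74 with the endothelial covariate, chosen after seeing the data. The lower count was 314 with array weights, 72 with the RNA quality covariate, 82 without control 4 and exposed animals 3 and 5, and 103 to 182 with 1 animal left out (103 without control 3, 112 without control 5, 117 without control 6, 104 without exposed animal 1). Fits within a number set or with animals left out hold fewer animals, while the block, array weight and covariate fits keep all 12. The cause of these differences was not tested. Of 6 pairs of same-numbered animals 2 had deviations correlated above 0.1, with correlations from -0.08 to 0.16. These few correlations cannot settle whether the shared numbers pair the animals. The block changed no call of a member. Precision is limited by 6 arrays per group and, for the dimmest members, by the floor.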
